A study of Mus musculus with 2 samples.

Results

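Wnt proteins are secreted signals that bind Frizzled receptors on the cell surface, together with the coreceptors Lrp5 and Lrp6, and so keep β-catenin from being destroyed or steer cell shape and polarity without it. R-spondins, through the receptors Lgr4, Lgr5 and Lgr6, raise the number of Frizzled receptors on a cell, while secreted inhibitors catch the ligand (Sfrp proteins, Frzb, Wif1) or block the coreceptor (most Dkk proteins). In the sensory ganglia the pathway is known from neural crest development, from the guidance and branching of sensory axons and from work on pain. The genes described here are these ligands, receptors, R-spondins and inhibitors, 48 of the 36910 gene names on the array. They were taken by gene symbol, in a choice made with earlier results of these data known. Each is read from its brightest probe without a GA-type repeat.

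Expression was measured on 2 single-colour arrays of dorsal root ganglion (DRG) neurons, the sensory cell bodies beside the spinal cord, from C57BL/6 mice. The Dock8-/- array came from a mouse line lacking Dock8, whose product activates small GTPases in leukocytes, and the labels describe its level of interleukin-31 (IL-31), an itch cytokine, as high. The Dock8+/- array came from the heterozygous line, whose IL-31 level is described as low. Both lines carried the AND T cell receptor transgene, (tcr)AND Tg, so that no sample without the transgene enters the comparison. Age, sex and the number of animals behind each RNA are not given in the sources used here. With 1 array per genotype, no difference given here has a replicate check, and none can be told apart from variation among mice of like genotype.

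The scanner software judged 50.7% of non-control probes in Dock8-/-, and 56.9% in Dock8+/-, to be well above background. The 75th percentile of processed intensity was 146 in Dock8-/- and 304 in Dock8+/-. Values are therefore compared after dividing each array by its own 75th percentile, and a log2 difference is that of Dock8-/- minus Dock8+/-, on this scaled signal. A 2-fold difference is used only as a description of size. The targeted gene gave no check of the labels: of 5 Dock8 probes, the Dock8-/- array read 0 well above background and the Dock8+/- array 1, a probe with intensities of 6.87 in Dock8-/- and 20.5 in Dock8+/-. The extent of the deletion is not stated in the labels. All 10 sensory neuron markers were well above background on both arrays, with a summed scaled signal of 1087 in Dock8-/- and 1111 in Dock8+/-. Markers of other cells were present too. The 8 fibroblast markers summed to 262 in Dock8-/- and 924 in Dock8+/-, and the 6 macrophage markers to 30.3 in Dock8-/- and 126 in Dock8+/-. RNA came from many cells at once, so fewer cells of a type and less RNA per cell cannot be told apart.

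The Wnt genes lay mostly lower on the Dock8-/- array. Of the 48 members, 29 were well above background on both arrays (60.4%, against 50.2% of all gene names). Of these 29, 10 were at least 2-fold lower in the Dock8-/- sample, a share of 34.5%, where 7.07% of all 18538 genes measured on both arrays were. Only 1, Wnt3, was at least 2-fold higher (3.45%, against 8.74% of all genes), and 18 differed by less than 2-fold. The difference was below 0 for 22 of the 29 and above 0 for 7, with a median of -0.44, whereas 48.3% of all genes lay below 0, with a median of 0.03. Detection in 1 sample alone was one-sided: 0 members were well above background in Dock8-/- alone (1.37% of all gene names) and 10, or 20.8%, in Dock8+/- alone (6.88% of all gene names). The remaining 9 members, Wnt2b, Wnt3a, Wnt8a, Wnt8b, Fzd5, Rspo4, Lgr6, Dkk1 and Dkk4, passed that flag on neither array (18.8%, against 41.4% of all gene names). The background flag is set before scaling, and the lowest scaled log2 signal that passed it was -3.18 in Dock8-/- and -4.13 in Dock8+/-. The directions of the measured differences depend on the scaling of whole arrays. Scaled on spike-in transcripts, all genes shifted by -1.85, so that 28 of the 29 members, and 87.7% of all genes, were at least 2-fold lower and Wnt3 alone of the 7 members above 0 stayed there.

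**Figure D1:**
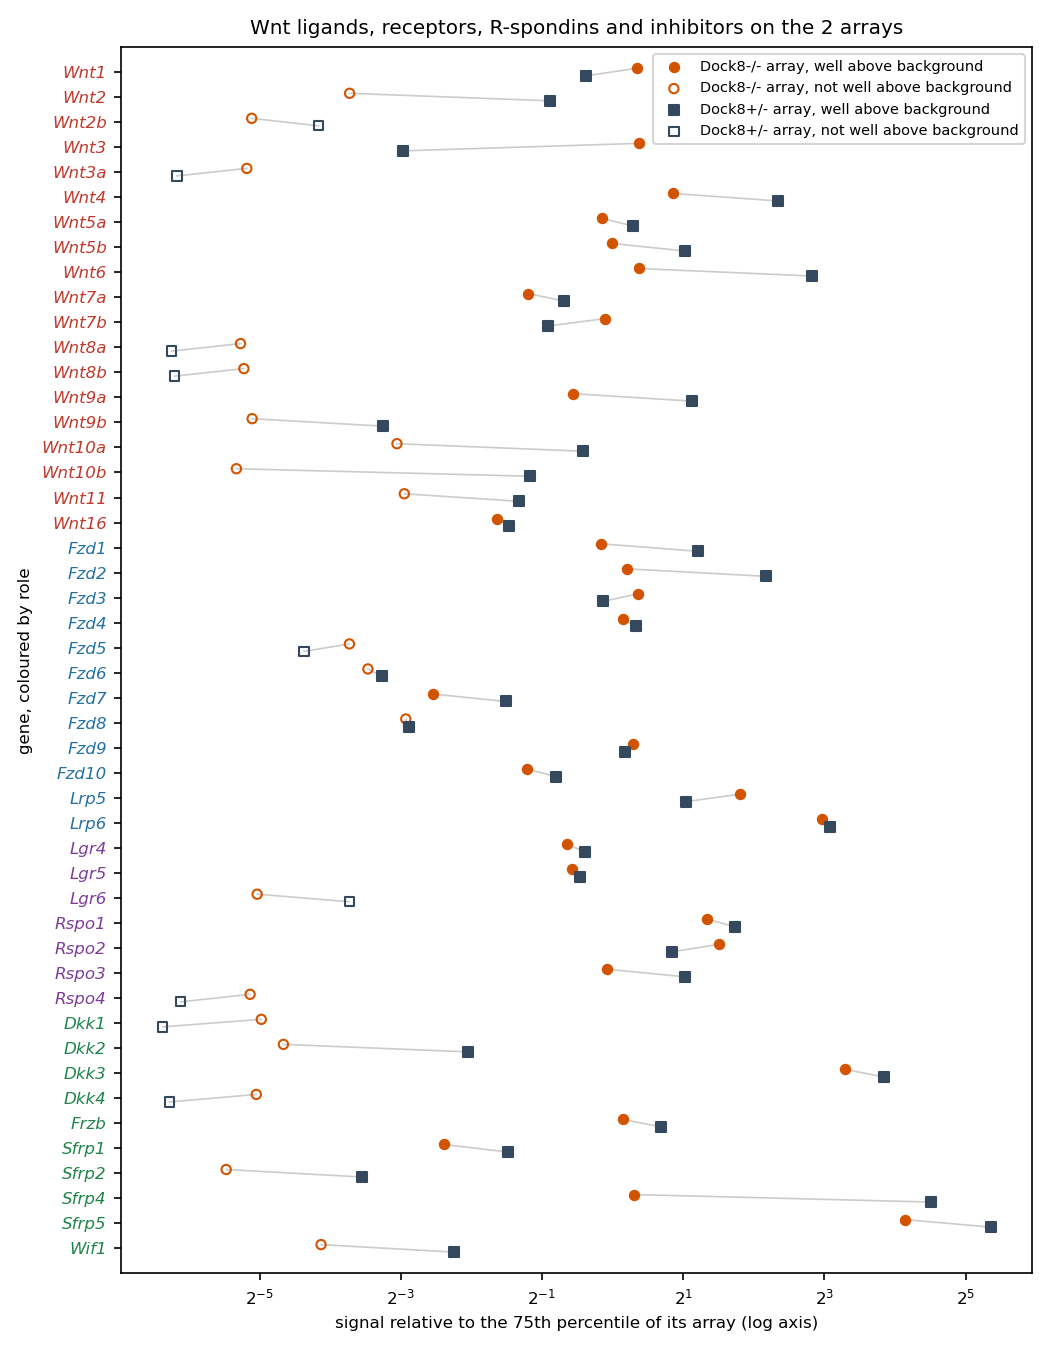
Signal of each of the 48 genes relative to the 75th percentile of its array (log axis), with circles for the Dock8-/- array and squares for the Dock8+/- array; open symbols were not well above background and their value is no measured level. The circle of Wnt3 lies far to the right of its square, and the circles of Sfrp4, Wnt6 and Fzd2 far to the left of theirs.

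Among the ligands, Wnt3 stood on the other side of 0 from most. It had a processed intensity of 189 in Dock8-/- and 38.8 in Dock8+/-, which is 10.2-fold higher in the Dock8-/- sample (log2 difference 3.34, with a scanner error of 0.27). In mouse embryos Wnt3 is made by motor neurons of the spinal cord and acts on the branching of sensory axons. The Dock8+/- intensity was not far above 17.4, the lowest of any probe well above background on that array, and the size of the difference depended on how background was handled. It was 2.0 on the log2 scale with normexp background correction and 1.49 when the arrays were scaled on spike-in transcripts. Its only probe, of transcript NM_009521, lies at chr11:103677409-103677468 on the plus strand (mm9).

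The ligand furthest below 0 among those read on both arrays was Wnt6, which is made by surface ectoderm in the embryo. Its intensity was 188 in Dock8-/- and 2159.9 in Dock8+/-, a 5.51-fold lower value in the Dock8-/- sample (log2 difference -2.46, scanner error 0.21). Wnt9a, a ligand of developing joints, had intensities of 98.7 in Dock8-/- and 663 in Dock8+/- and was 3.22-fold lower. Wnt4, which acts in the kidney and the female reproductive tract, had 262 in Dock8-/- and 1539 in Dock8+/- and was 2.81-fold lower. All 3 remained at least 2-fold lower under each of the 11 alternative ways of computing a gene's value. Each has 1 probe, so the alternatives of probe choice and background flag could not change its value, and spike-in scaling lowered every gene. Wnt5b, a relative of Wnt5a that acts without β-catenin, read 145 in Dock8-/- and 618 in Dock8+/-. At -1.03 it lay just past the 2-fold size, and just inside it with normexp correction (-0.88) or with the 75th percentile taken over detected probes (-0.996).

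The other measured ligands differed by less than 2-fold. Wnt1, the signal of the dorsal neural tube from which the neural crest arises, had intensities of 186 in Dock8-/- and 234 in Dock8+/-, a log2 difference of 0.73. Wnt7b, which acts in lung and brain vessels, had 135 in Dock8-/- and 161 in Dock8+/-, a difference of 0.81. These ligands and Wnt3 were the 3 above 0. Wnt5a, the best known ligand of β-catenin-independent signalling, lay at -0.44 with 131 in Dock8-/- and 371 in Dock8+/-. Wnt7a, a limb patterning signal, lay at -0.51 with 63.6 in Dock8-/- and 188 in Dock8+/-. Wnt16, which acts in bone, lay at -0.18, within its scanner error of 0.25, with 46.8 in Dock8-/- and 110 in Dock8+/-. Over the 10 measured ligands the median was -0.47.

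Another 5 ligands were read on the Dock8+/- array only, so that their difference is a bound. It sets the Dock8+/- value against the higher of the probe's own Dock8-/- value and the lowest scaled signal of any probe well above background on that array. Wnt10a, a ligand of teeth and skin appendages, had an intensity of 17.5 in Dock8-/-, not well above background, and 227 in Dock8+/-. It was 6.20-fold lower by this bound. Its own Dock8-/- value was the higher, so the bound was its plain difference, with a scanner error of 0.39 on the log2 scale. Wnt2, a lung ligand, had 11.01 in Dock8-/- and 165 in Dock8+/- and was at least 4.89-fold lower. Wnt10b, which favours bone over fat, had 3.62 in Dock8-/- and 135 in Dock8+/- and was at least 4.0-fold lower. A second probe of Wnt10b had 3.77 in Dock8-/- and 3.99 in Dock8+/- and was well above background on neither array. None of these 3 ligands was well above background in Dock8-/-. Wnt11, a kidney ligand, had 18.8 in Dock8-/- and 121 in Dock8+/- and was 3.07-fold lower by this bound. For Wnt11 too the bound was the plain difference, with a scanner error of 0.37. A second Wnt11 probe had 18.2 in Dock8-/- and 70.8 in Dock8+/- and was 1.86-fold lower. Wnt9b had 4.23 in Dock8-/- and 32.0 in Dock8+/-, too dim for a bound. With the inhibitor Dkk2, 5 of the 10 members detected in the Dock8+/- sample alone had a bound of 2-fold or more, as had 17.4% of the 2539 such genes. With normexp correction 0 of these 5 bounds reached 2-fold.

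**Figure D2:**
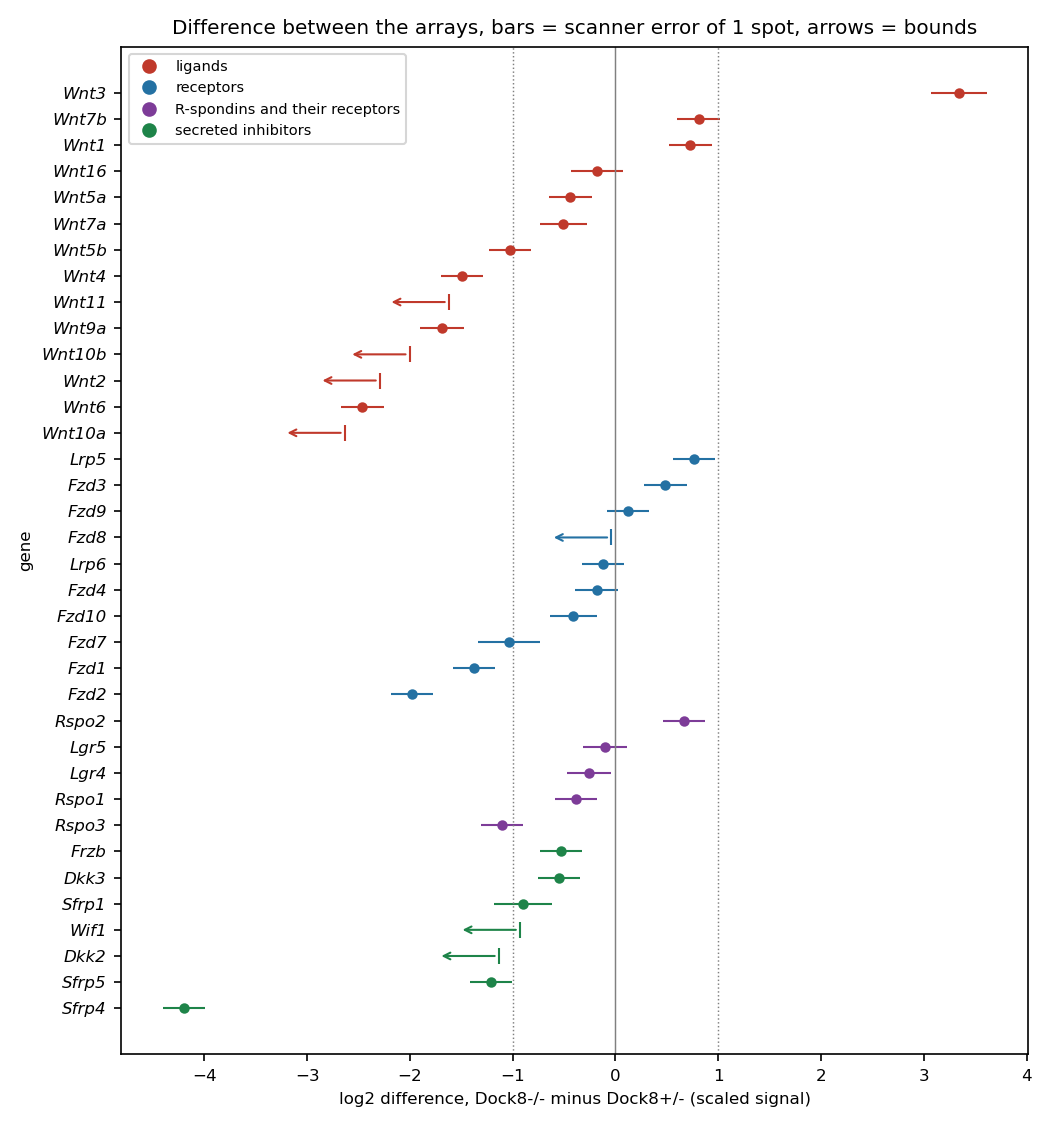
Log2 difference (Dock8-/- minus Dock8+/-, scaled signal) of the 29 genes measured on both arrays, as points with bars of 1 scanner error, and of genes read in Dock8+/- alone and bounded below 0, as ticks with arrows pointing to where the value may lie; dotted lines mark 2-fold. Wnt3 is the only gene right of the upper line, at 3.34, and Sfrp4 lies furthest left, at -4.20.

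The probes behind the larger differences are shown because each value is the signal of RNA bound to them. Of the 60 bases of a probe, 30 are given 5′ to 3′ as the deposited files list them. Capitals mark AATAAA, the polyadenylation signal found near the 3′ end of most transcripts, where the stretch holds it.
Wnt3: attgtgcgactggatccattcatcgaagtc
Wnt6: gagtttagtatcAATAAAgacatttaaatc
Wnt9a: cctgagtgactgcagagaatgtatttattt
Fzd2: tcacagtctacatgatcaaatacctcatga
Rspo3: taggagagaaagccaccacAATAAAtatat
Sfrp4: cacagttgtctgtgtgcatactgtgtaaga
Sfrp5: attattgctactgctgtggggccgctgatt
The Wnt6 probe lies at chr1:74831461-74831520 and the Wnt9a probe at chr11:59146953-59147012, both on the plus strand (mm9). Searched on the probe's own strand, AATAAA occurred in 9 of the 48 member probes (18.8%) and in 9.77% of all 56601 non-control probes. Of the 10 members at least 2-fold lower, Wnt6 and Rspo3 had it, and the Wnt3 probe did not. Exon and UTR annotation of mm9 was not used here.

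Several Wnt genes lie beside each other in the genome, and 4 pairs of member probes lay within 200 kb of each other. On chromosome 1 the probes of Wnt6 and Wnt10a were 19.1 kb apart on the same strand, and both genes were lower in the Dock8-/- sample. The other pairs lie on opposite strands, and Wnt9b and Wnt3a gave no difference to set beside that of their partners. On chromosome 11, 88.5 kb apart, Wnt3 was 10.2-fold higher in the Dock8-/- sample while Wnt9b was not well above background there. On chromosome 15, 21.9 kb apart, Wnt1 lay at 0.73 and Wnt10b, by its brighter probe alone, was at least 4.0-fold lower. In the pair of Wnt9a and Wnt3a on chromosome 11, 85.2 kb apart, Wnt9a was 3.22-fold lower and Wnt3a was detected on neither array.

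Of the 12 receptors and coreceptors, 9 were measured on both arrays. Among these, 3 were at least 2-fold lower in the Dock8-/- sample and 0 were 2-fold higher, and the median was -0.18. Fzd2 had an intensity of 167 in Dock8-/- and 1376 in Dock8+/- and was 3.94-fold lower (log2 difference -1.98, scanner error 0.21). Its probe lies at chr11:102467613-102467672 on the plus strand (mm9). Fzd1 had 130 in Dock8-/- and 706 in Dock8+/- and was 2.59-fold lower. Both are Frizzled receptors, and both stayed at least 2-fold lower under all 11 alternatives. With 1 probe each, their values could not change under the alternatives of probe choice and background flag. Fzd7, close in sequence to them, had 24.8 in Dock8-/- and 106.5 in Dock8+/-. Its difference of -1.04 came with a scanner error of 0.30 and was -0.17 with normexp correction.

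The remaining Frizzled genes and the coreceptors were nearer to 0. Lrp6, the main coreceptor of β-catenin signalling, had 1135 in Dock8-/- and 2578 in Dock8+/-, a log2 difference of -0.12. A second Lrp6 probe lay at 0.41 and the mean of both at 0.14, so that its sign depended on the probe. Lrp5, the other coreceptor, had 511 in Dock8-/- and 628 in Dock8+/-, a difference of 0.76. Both coreceptors were thus detected on both arrays with differences under 2-fold. Fzd3, which guides axons, lay at 0.48 with 186 in Dock8-/- and 277 in Dock8+/-. Fzd9 lay at 0.12 with 179 in Dock8-/- and 342 in Dock8+/-, and Fzd10 at -0.41 with 62.8 in Dock8-/- and 174 in Dock8+/-. Fzd4, which also binds norrin in retinal vessels, lay at -0.18 with 161 in Dock8-/- and 382 in Dock8+/-. All 4 of these Frizzled genes lay within 2-fold. A brighter Fzd4 probe with a repeat, left out by the rule, lay at -0.37. Fzd6, with 13.2 in Dock8-/- and 31.6 in Dock8+/-, and Fzd8, with 19.1 in Dock8-/- and 41.0 in Dock8+/-, were detected in Dock8+/- alone and set no bound near 2-fold.

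R-spondins and their receptors held 5 measured genes of 7, of which 1 was at least 2-fold lower and 0 were 2-fold higher. Rspo3, which acts in blood vessels and placenta, had an intensity of 138 in Dock8-/- and 619.9 in Dock8+/-, a log2 difference of -1.10. Its second probe, less than 1 kb away, had 29.9 in Dock8-/- and 38.6 in Dock8+/-, a difference of 0.69. The direction of Rspo3 thus depended on the probe, and the mean of both was -0.21, while normexp correction gave -0.96 for the first. Rspo1 had 370 in Dock8-/- and 1007 in Dock8+/-, a difference of -0.38. Rspo2, which in mice is needed for limb and lung growth, had 415.5 in Dock8-/- and 546 in Dock8+/-, a difference of 0.67. These R-spondin values lay on both sides of 0. Among the receptors, Lgr5, a stem cell marker of the gut, lay at -0.11 with 98.03 in Dock8-/- and 220.1 in Dock8+/-. Lgr4 lay at -0.25 with 92.8 in Dock8-/- and 231 in Dock8+/-, but its second probe, at 33.8 in Dock8-/- and 23.4 in Dock8+/-, lay at 1.59.

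Read from the probe used for each, the 5 secreted inhibitors measured on both arrays were all below 0. Their median was -0.90, and 2 of them were at least 2-fold lower. Sfrp4, which binds Wnt ligands through a domain like that of the Frizzled receptors, had an intensity of 180.3 in Dock8-/- and 6917 in Dock8+/-. It was 18.4-fold lower in the Dock8-/- sample (log2 difference -4.20, scanner error 0.21), the largest difference of any measured member. Across the alternatives other than spike-in scaling it stayed between -4.20 and -4.04. Its probe, of transcript NM_016687, lies at chr13:19724488-19724547 on the plus strand (mm9). Sfrp5, of the same family, had 2570.5 in Dock8-/- and 12439 in Dock8+/- and was 2.32-fold lower (log2 difference -1.21). The Sfrp5 probe lies at chr19:42272509-42272568 on the minus strand.

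Other inhibitors differed by less than 2-fold or were read on 1 array. Sfrp1 lay at -0.90 with 27.8 in Dock8-/- and 108 in Dock8+/-, and at -0.12 with normexp correction. Frzb, a relative of the Sfrp proteins found in cartilage, lay at -0.53 with 162 in Dock8-/- and 488 in Dock8+/-. Dkk3, a divergent Dkk protein, lay at -0.55 with 1428 in Dock8-/- and 4353 in Dock8+/-. By the probes used, these 3 were read on both arrays and lay below 0. Another, dimmer Dkk3 probe, with 27.4 in Dock8-/- and 48.9 in Dock8+/-, lay at 0.22. Dkk2 had 5.75 in Dock8-/- and 73.8 in Dock8+/- and was at least 2.19-fold lower. Wif1 had 8.32 in Dock8-/- and 64.0 in Dock8+/- and was at least 1.90-fold lower. Sfrp2, at 3.28 in Dock8-/- and 26.1 in Dock8+/-, was too dim for a bound. All 3 were detected in Dock8+/- alone.

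**Figure D3:**
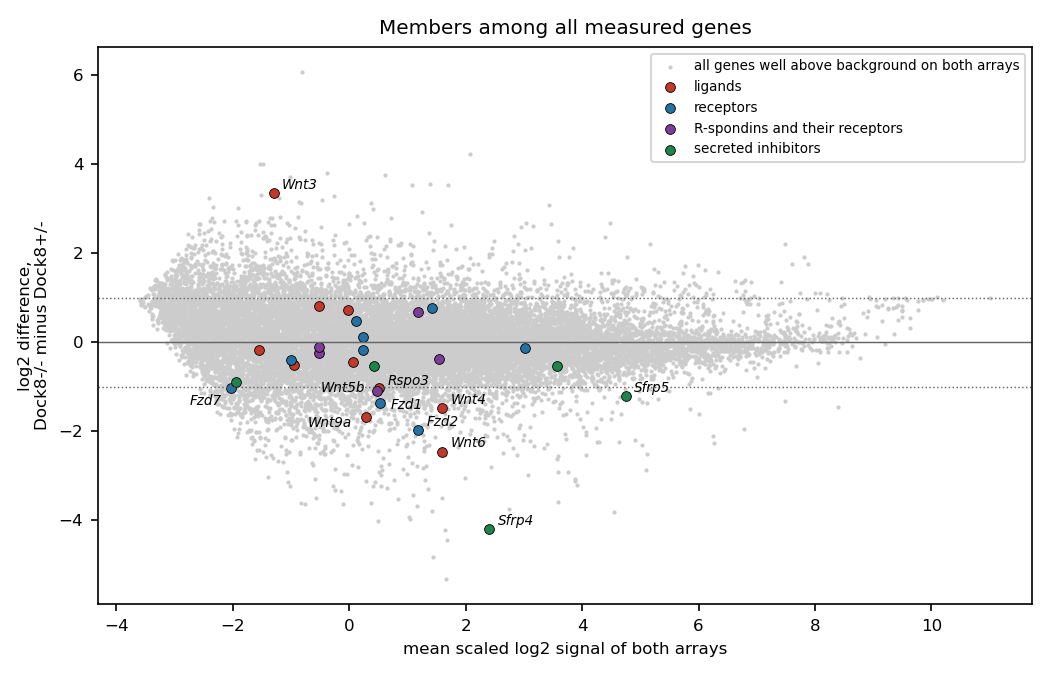
Log2 difference (Dock8-/- minus Dock8+/-) against the mean scaled log2 signal of both arrays, for all 18538 measured genes in grey and the 29 measured members in colour by role; dotted lines mark 2-fold. Members at least 2-fold apart are named: Wnt3 above, and 10 genes below, most of them away from the dim left edge.

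Dim genes differed more between the arrays than bright ones, so the members were also read beside genes of like signal. Measured genes were divided into 4 equal bins by their mean signal on both arrays. In the dimmest bin, 2-fold lower values made up 6.99% of all genes and 2-fold higher ones 17.8%, and it held 4 members, with Fzd7 lower and Wnt3 higher. The next bin held 15 members, 4 of them at least 2-fold lower, where 11.05% of its genes were. In the one above, 4 of 7 members (Wnt4, Wnt6, Fzd2 and Sfrp4) were at least 2-fold lower, where 6.78% of its genes were. The brightest bin held Dkk3, Lrp6 and Sfrp5, of which Sfrp5 was at least 2-fold lower, where 3.47% of its genes were.

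Genes with several probes show how far a reading depends on the probe. Among 6164 genes with at least 2 repeat-free probes measured on both arrays, the 2 brightest probes differed by a median of 0.49 on the log2 scale, and by 1.34 at the 90th percentile. The 9 members with such probes had a median gap of 0.39. Wnt5b had the smallest gap, 0.14, and its second probe lay at -1.17, past the 2-fold size as well. Wnt5a had a gap of 0.17, Dkk3 of 0.19, Frzb of 0.22, Wnt7b of 0.39, Wnt7a of 0.48 and Lrp6 of 0.53. The gaps of Rspo3 (1.80) and Lgr4 (1.84) exceeded the 90th percentile of all genes. Wnt3, Wnt4, Wnt6, Wnt9a, Fzd1, Fzd2, Fzd7, Sfrp4 and Sfrp5 each rest on 1 probe and 1 spot per array.

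**Figure D4:**
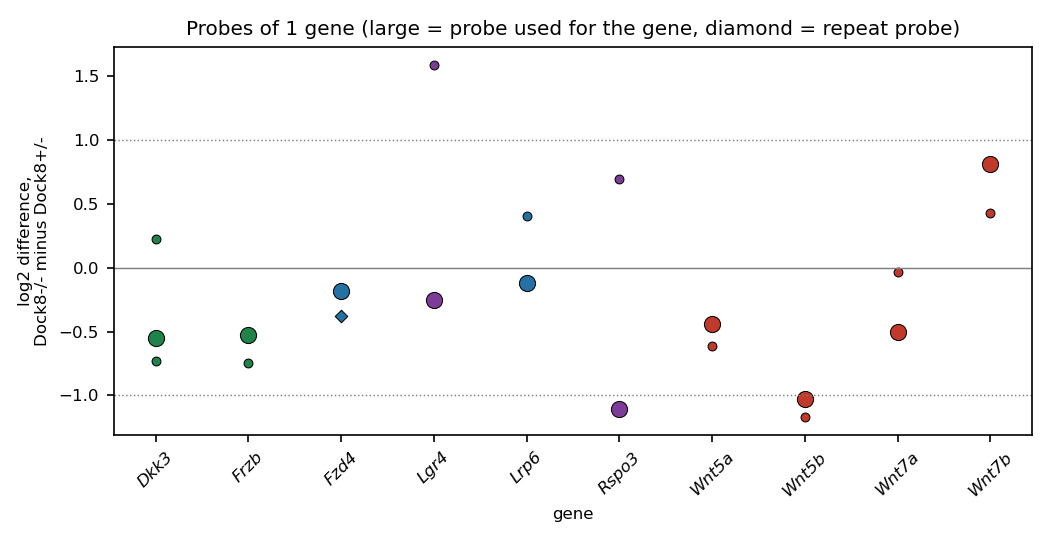
Log2 difference (Dock8-/- minus Dock8+/-) of every probe well above background on both arrays, for the 10 genes with at least 2 such probes; large symbols are the probes used, and the diamond is the Fzd4 probe with a repeat. The probes of Wnt5b, Wnt5a and Frzb lie close together, while those of Rspo3, Lgr4, Lrp6 and Dkk3 lie on both sides of 0.

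Other genes of the Wnt pathway lay on both sides of 0. In the list of coreceptors and extracellular modulators, 22 of 26 genes were measured, with 2 at least 2-fold higher, 2 at least 2-fold lower and a median of -0.31. Shisa3, which in the frog holds back Frizzled maturation, had an intensity of 85.3 in Dock8-/- and 1526 in Dock8+/- and was 8.57-fold lower. Gpc4, a cell surface proteoglycan, was 2.33-fold lower. Sostdc1, a secreted antagonist of Wnt and BMP signals, had 927 in Dock8-/- and 727 in Dock8+/- and was 2.66-fold higher. Ptk7, a coreceptor of planar polarity, was 2.30-fold higher. Of 8 measured genes of ligand secretion, 1 was higher, Tmed5 (2.54-fold), and the median was -0.12. Porcn, which attaches the lipid to Wnt proteins, lay at 0.05 and Wls, which carries them to the surface, at -0.39.

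Inside the cell, the 22 genes of the cytoplasmic core had a median of 0.20, with 3 at least 2-fold higher and 0 lower. They were Apc (3.09-fold), a scaffold of the complex that destroys β-catenin, Tnks (2.98-fold), which marks Axin for destruction, and Dvl3 (2.30-fold), which relays the Frizzled signal. Ctnnb1, encoding β-catenin, lay at -0.52. The 14 genes of planar polarity had a median of 0.00, with Daam2 2.20-fold higher, and Fuz (2.68-fold) and Invs (2.49-fold) lower. Of the 12 measured nuclear factors 0 were 2-fold apart, and the median was 0.08.

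Known targets of β-catenin signalling lay on both sides of 0 as well. Of 19 targets 13 were measured, with a median of 0.14. Past the 2-fold size, 1 was higher and 2 were lower. Ascl2, a transcription factor of gut stem cells, had 152 in Dock8-/- and 46.1 in Dock8+/- and was 6.87-fold higher. Ccnd1, encoding cyclin D1, had 75.6 in Dock8-/- and 1197 in Dock8+/- and was 7.59-fold lower. Wisp1, a matrix-associated protein, had 25.7 in Dock8-/- and 249 in Dock8+/- and was 4.63-fold lower. These were the 3 measured targets past 2-fold. The Wisp1 relative Wisp2, at 13.2 in Dock8-/- and 465 in Dock8+/-, was at least 13.8-fold lower. Axin2, a target in most tissues, was read at 17.2 in Dock8-/- and 44.7 in Dock8+/-, and its brightest probe did not pass the background flag on both arrays.

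The lower Wnt genes went with lower markers of connective tissue, muscle and macrophages. Of 7 measured fibroblast markers 6 were at least 2-fold lower in the Dock8-/- sample, with a median of -2.30, and Dpt, detected in Dock8+/- alone, was at least 10.6-fold lower. Col1a1, a collagen chain, had 631 in Dock8-/- and 10007 in Dock8+/-. Pdgfra, of the same list, had 589 in Dock8-/- and 1314 in Dock8+/-, a log2 difference of -0.10. Skeletal muscle markers summed to a scaled signal of 1.67 in Dock8-/- and 23.8 in Dock8+/-, and 3 of the 6 were well above background in Dock8-/-, against all 6 in Dock8+/-. The 3 measured on both had a median of -3.94. Cartilage and bone markers summed to 4.04 in Dock8-/- and 18.2 in Dock8+/-, with 2 of 4 measured genes at least 2-fold lower, 1 higher and Bglap not well above background on either array. The 6 macrophage markers had a median of -1.70, and 5 of them were at least 2-fold lower. The part of these cells in the Wnt differences was not tested.

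Markers of the ganglion's own cells had smaller median differences than those of fibroblasts, muscle and macrophages. The 10 sensory neuron markers had a median of 0.05. Satellite glia markers had a median of 0.72, with 3 of 6 at least 2-fold higher and Fabp7 lower, and a summed scaled signal of 762 in Dock8-/- and 550 in Dock8+/-. Schwann cell markers had a median of -0.38 and summed to 474 in Dock8-/- and 590 in Dock8+/-. Endothelial and mural markers had a median of -0.39, with 0 of 6 at least 2-fold apart. Apart from these cells, 2 of 4 keratinocyte markers were measured, 1 of them at least 2-fold higher, and the list summed to 2.34 in Dock8-/- and 1.95 in Dock8+/-. Dsg1b, a desmosome gene of that list, had 161 in Dock8-/- and 3.96 in Dock8+/- and was at least 19.4-fold higher.

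**Figure D5:**
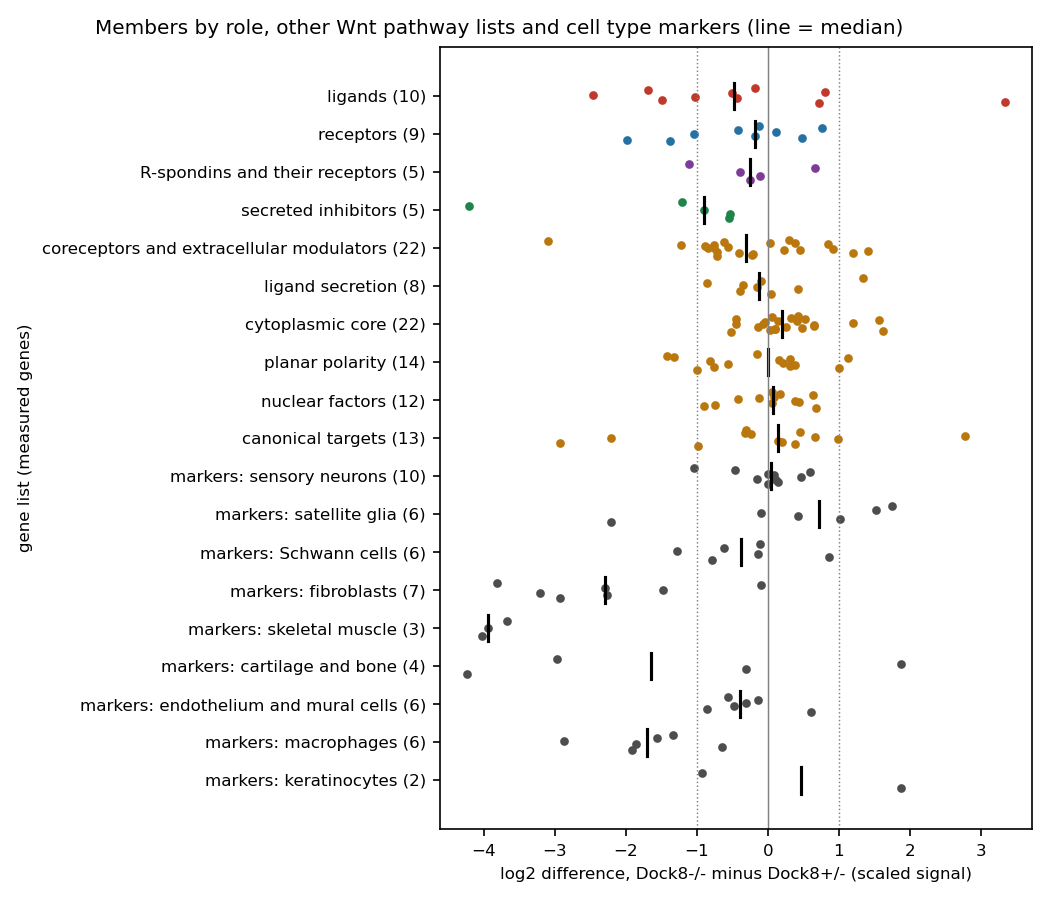
Log2 difference (Dock8-/- minus Dock8+/-) of each measured gene, by role for the members and by list for other Wnt pathway genes and cell type markers; black lines are medians and numbers in brackets the measured genes. The medians of fibroblast (-2.30), muscle (-3.94), macrophage (-1.70) and cartilage and bone (-1.64) markers lie left of all 4 member medians. Of these 4, the inhibitors' (-0.90) is the lowest.

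Promoter sequence is given for members that differed, as the 250 bases before the transcription start in RefSeq (GRCm38.p6). Of the 48 members 31 had an entry, with 34 windows. They were rich in the dinucleotide CG, with a median of 21.5 per window against 6 over all 32851 windows, and a median GC content of 66.8% against 52.4%. The first pair shows the ligand that was higher in the Dock8-/- sample and the measured ligand furthest below 0, with CG in capitals. The Wnt3 window, at chr11:103773925-103774174 on the plus strand, held 22, and that of Wnt6, at chr1:74771642-74771891 on the plus strand, held 28, so that both were CG-rich.
Wnt3: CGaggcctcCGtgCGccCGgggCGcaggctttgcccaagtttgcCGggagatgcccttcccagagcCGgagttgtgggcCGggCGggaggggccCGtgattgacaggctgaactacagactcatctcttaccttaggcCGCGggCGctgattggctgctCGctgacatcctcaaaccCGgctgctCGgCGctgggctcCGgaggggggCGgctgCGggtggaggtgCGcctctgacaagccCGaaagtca
Wnt6: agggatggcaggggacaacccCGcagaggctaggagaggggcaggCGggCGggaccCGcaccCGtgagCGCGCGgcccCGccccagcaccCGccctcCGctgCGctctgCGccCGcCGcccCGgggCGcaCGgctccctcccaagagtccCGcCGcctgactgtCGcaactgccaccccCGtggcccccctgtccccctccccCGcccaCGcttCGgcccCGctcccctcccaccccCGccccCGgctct

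The letters CTTTGA, the core of the site bound by the Tcf and Lef partners of β-catenin, or their reverse complement TCAAAG, stood in 5 of the 34 member windows (14.7%) and in 13.8% of all windows. The share among members was thus near that of all windows. They were found upstream of Dkk1, Frzb, Fzd1, Wnt11 and Wnt5b, and a match of letters is not a bound site. Fzd1 and Wnt5b, both at least 2-fold lower in the Dock8-/- sample, are shown with the match in capitals. The Fzd1 window lies at chr5:4758217-4758466 and that of Wnt5b at chr6:119449387-119449636, both on the minus strand (GRCm38.p6). Wnt5b had 3 windows, of which this one alone held the letters.
Fzd1: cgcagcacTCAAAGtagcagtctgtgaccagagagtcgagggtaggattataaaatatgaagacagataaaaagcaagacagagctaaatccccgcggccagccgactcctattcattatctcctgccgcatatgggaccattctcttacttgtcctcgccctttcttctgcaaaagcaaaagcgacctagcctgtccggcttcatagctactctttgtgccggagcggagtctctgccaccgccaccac
Wnt5b: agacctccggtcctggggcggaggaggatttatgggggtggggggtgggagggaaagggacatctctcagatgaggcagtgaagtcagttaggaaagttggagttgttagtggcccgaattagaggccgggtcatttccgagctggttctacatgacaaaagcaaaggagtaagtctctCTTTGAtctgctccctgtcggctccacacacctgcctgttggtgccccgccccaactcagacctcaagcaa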

How the data were processed

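The deposited scanner files give each spot's processed intensity on a linear scale, made with Agilent Feature Extraction. The version is 10.7.1.1 per the file headers and 9.5.1.1 per the submitters' processing notes. Both arrays lay on the same slide, and 0 non-control spots were saturated. Control and non-uniform spots were left out, spots of 1 probe were averaged as log2 intensity, and the array's 75th percentile (56601 non-control probes) was taken off. The brightest probe by mean log2 signal, without 4 or more units of GA or GAA, stood for a gene, which counted as measured if both arrays read it well above background. With 1 array per genotype no test was made. The number of arrays limits the precision: 299 probes with 10 spots had a root mean square SD of 0.0535 (Dock8-/-) and 0.0438 (Dock8+/-). Scanner errors combine the software's error of both values, whose multiplicative part is 0.1 per the file headers.

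All members were named by rule. From the other lists, fixed by function, genes at least 2-fold apart were named, at most 4 a list by size. Ctnnb1, Porcn, Wls, Axin2, Dpt, Dsg1b, Col1a1, Pdgfra, Sox9 and Bglap were chosen after their values were seen. Members and lists were chosen with earlier results of these data known. Of the members' accessions 46 matched the RefSeq table with 0 differing symbols, and 2 (Wnt7a, Fzd4) were not found. The authors' deposited value table, of intensities on a linear scale, served as an alternative: 98.9% of its sorted values were equal between the arrays, as after quantile normalisation, with a median of 27.9 on both. It showed no centring, and its direction matched the scanner files (correlation at least 0.999). Background correction with normexp (offset 50), quantile normalisation and cyclic loess used limma 3.58.1 in R 4.3.3. Other steps used Python 3.11.15 with pandas 2.3.3, and the computation was tested on simulated data.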

Additional observations from a re-analysis of the deposited data

How the results depend on the processing

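Leaving out a replicate was not possible with 1 array per genotype. No paired analysis was possible because there is no test. Spike-in scaling shifted all genes by -1.85. It put 28 of the 29 measured members at least 2-fold lower (87.7% of all genes), their median at -2.29 and 10 bounds at 2-fold or more, and of the 7 members above 0 it left Wnt3 there. With normexp correction the median was -0.19 and 0 bounds reached 2-fold. Of the 10 lower members 7 stayed at least 2-fold lower (Fzd7, Rspo3 and Wnt5b did not), where 4.66% of all genes were lower. Averaging a gene's probes gave a median of -0.35. A 1.5-fold size gave 5 higher members and a 3-fold size 4 lower. The shares of all genes at these sizes, and for bounds under the alternatives, were not computed. Without a filter on dim probes 3 members were higher, where 14.5% of all genes were, and 19 lower, where 7.47% of all genes were. Among members well above background on at least 1 array, 18 were lower (11.9% of all such genes). In both, 8 of the lower members passed the background flag in Dock8+/- alone, so the filter itself adds them. Reading the scanner's positive-and-significant flag in place of well above background left 3 bounds. The alternatives for bounds were added after seeing the data. Spike-in scaling moves every gene by 1 constant, and the normexp offset of 50 adds most, in proportion, to dim signals. The part of the offset in the normexp values, and the cause of the other shifts, were not tested. Of 319 values of measured members under 11 alternatives 309 kept their sign. These include values that could not change, as for members with 1 probe under the alternatives of probe choice or background flag. In the other alternatives 9 to 11 members were lower, where 6.68% to 8.05% of all genes were (not computed for averaged probes). With the positive-and-significant flag 15 of 37 members were lower, where 8.56% of all genes were. Dim signal on the Dock8-/- array limits what can be read, since 19 of the 48 members were not well above background there.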
